A study of Rattus norvegicus with 5 samples.

Results

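A set of 98 probes on a rat expression array, representing 59 named genes and a further group of transcripts with no gene symbol, was higher after both 45 and 60 min of insulin than before it. The probes were chosen by their values. Each had to be well above background on all 5 arrays, at least 1.5-fold above the 0 min array at 45 and at 60 min, and at least 1.5-fold above the 15 min array at 45 min, a threshold applied on the log2 scale. Of 41012 probes that were not controls, 19762 met the background condition and could be tested, 98 of these met the whole rule (0.496%), and 21250 did not pass the background condition. The same rule with the sign turned found 32 probes that were lower (0.162%). The values whose differences chose the probes, those at 0, 15, 45 and 60 min, are given below as a description and were not tested.

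The cells were Fao, a differentiated line derived from a rat hepatoma, so every array stands for the same single cell line. All cells, those of the 0 min array included, grew for 2 days in medium with 10% fetal bovine serum and were then kept for 16 h without serum and with 10 nM dexamethasone, a synthetic glucocorticoid. Insulin was then added at 10 nM, and RNA was taken at 0, 15, 30, 45 and 60 min, with 700 ng of total RNA labelled for 1 array at each time. No time had a replicate, the 0 min array was the only reference without insulin, and time-matched cells without insulin were not analysed here. No p-value could therefore be given, and each difference below is a difference between 2 arrays.

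Insulin binds a receptor kinase that signals through the PI3K and AKT kinases to metabolism and through the ERK kinases to the nucleus. The first genes to respond to a growth signal are immediate early genes, whose mRNA appears and decays quickly because the transcription factors they need are already in the cell. Other transcripts accumulate later and stay high longer, among them brakes on signalling, small GTPases that shape the actin cytoskeleton, and cytokine and stress response genes, many of which the factors SRF, AP-1, CREB and NF-kB are known to control. Liver cells also answer insulin, glucocorticoids and free zinc with changes in metallothioneins, small proteins that bind zinc and copper.

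The 4 arrays of 0 to 45 min shared 1 slide, in order of time, and the 60 min array was on another slide with a scan of its own, so slide and time cannot be told apart at 60 min. The 75th percentile of signal, by which each array was divided, was 480.3 for the 60 min array, where the other arrays had 253.6 to 299.9, and 24489 spots were well above background there against 22069 to 22819. Over 135 probes spotted 10 times, replicate spots of an array had a median SD of 0.122 to 0.147 on the log2 scale. The part of this spread between spots in a change between arrays is an SD of 0.208. Over all tested probes, the SD of the change from 0 min was 0.247 at 45 min and 0.331 at 60 min. The spread between spots holds no difference of labelling, hybridisation, slide, scan or culture, and most members had a single spot. All 15 hepatocyte markers were well above background on all 5 arrays, against 3 of 6 macrophage, 1 of 5 endothelial, 2 of 6 stellate and 2 of 4 biliary markers with a probe. None of the tested markers was past the threshold at both 45 and 60 min (0.789% of tested probes), a count too small to set against that share. The RNA came from whole dishes, so a larger share of responding cells and more RNA in each cell cannot be told apart.

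The typical member was slightly lower at 15 min, part of the way up at 30 min and near its highest level at 45 or 60 min. The median log2 change from 0 min over the 98 members was −0.08 at 15 min, 0.48 at 30 min, 0.88 at 45 min and 1.03 at 60 min, whereas the median over all tested probes lay between 0.02 and 0.03 at every time. Changes ranged from 0.59 to 3.14 at 45 min and from 0.59 to 3.89 at 60 min. The members were at least 2-fold higher at both times in 28 cases and at least 4-fold higher at both in 6. Of all tested probes, 1.56% were past the threshold at 45 min, 3.27% at 60 min and 0.789% at both, 1.36% were past it between 15 and 45 min, and 31.8% of those past it at 45 min were members.

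**Figure D1:**
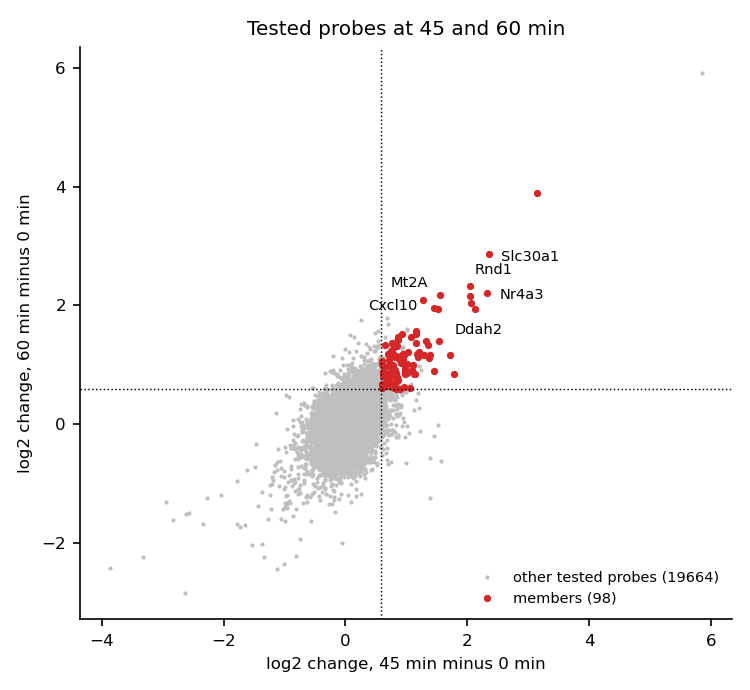
The log2 change from 0 min at 45 min (horizontal axis) is plotted against that at 60 min (vertical axis) for each of the 19762 tested probes, with the 98 members in red, the other probes in grey and the 1.5-fold threshold dotted. The members fill the upper right corner because the rule placed them there, and the red point farthest out is the probe with no symbol beside Slc30a1.

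The change from 0 to 30 min took no part in the choice of members, but each member had to be well above background on the 30 min array too. The reading at 30 min was thus only partly separate from the choice, and it was set against the same 0 min array. At 30 min, 38 of the 98 members were past the 1.5-fold threshold, against 1.05% of all tested probes, and 95 were above their 0 min level, against 54.8%. The 3 that were not were Reg3b, Prickle1 and a probe with no symbol on chromosome 3. Reg3b, a secreted antibacterial lectin, had a log2 change of −0.36, while the other 2 had changes of −0.05 and −0.01. In 91 members the 30 min level lay between those of 15 and 45 min. The share among all tested probes was 18.6%, but for the members the rule had already placed the 45 min level above the 15 min level. By the median, 49.0% of the change at 45 min was present at 30 min. When the background condition was asked only at the late times, 98 of 322 members were past the threshold at 30 min.

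**Figure D2:**
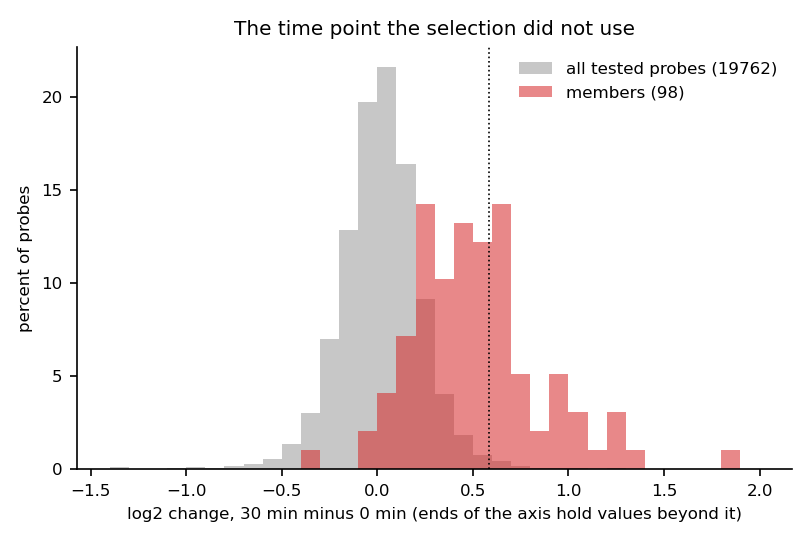
Histograms show the log2 change from 0 to 30 min (horizontal axis) as a percent of probes (vertical axis) for all 19762 tested probes in grey and for the 98 members in red, with the 1.5-fold threshold dotted. Most members lie to the right of the bulk of tested probes, with a median of 0.48 against 0.02, and 38 lie past the dotted line.

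After 45 min the courses parted. The level was higher at 60 than at 45 min in 62 members and lower in 36, where 51.0% of all tested probes were higher. The highest level of the 5 arrays fell at 60 min in 62 members, at 45 min in 34 and at 30 min in Atf3 and Rhob. Since the 60 min array alone was on the second slide, the part of the slide in these counts was not tested. Many members were dim before insulin, with 40 of the 98 among the dimmest 25% of tested probes at 0 min and 13 among the brightest 25%. The part of this dimness in the size of the changes was not tested.

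At 15 min, 59 members lay below their 0 min level (42.8% of tested probes), and 12 of them were at least 1.5-fold below it (0.794% of tested probes), while no member was that far above it (0.896% of tested probes). The rule favoured low values at 15 min, so these counts describe the members and carry no test. The changes at 15 min are those of the main processing. The members with the deepest dips were a probe with no symbol on chromosome 9, with a log2 change of −1.63, another beside the probe of Trib1, with −1.44, and Atf3, with −1.42. A further 7 named genes or neighbours of named genes were among the 12: Arid5a, Mt1, Csrnp1 and a probe next to it, Noct, Osr2 and Prickle1. The other 2 were the probes with no symbol beside Slc30a1. With another background correction, normexp, Prickle1 had log2 changes of 0.73 and 1.27 at 45 and 60 min. The opposite-strand probe beside Slc30a1 had 1.06 and 0.75. Both nevertheless missed the rule there, because 45 min was less than 1.5-fold above 15 min, so their dips were not kept with normexp. The part of the background correction in the other dips was not tested.

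**Figure D3:**
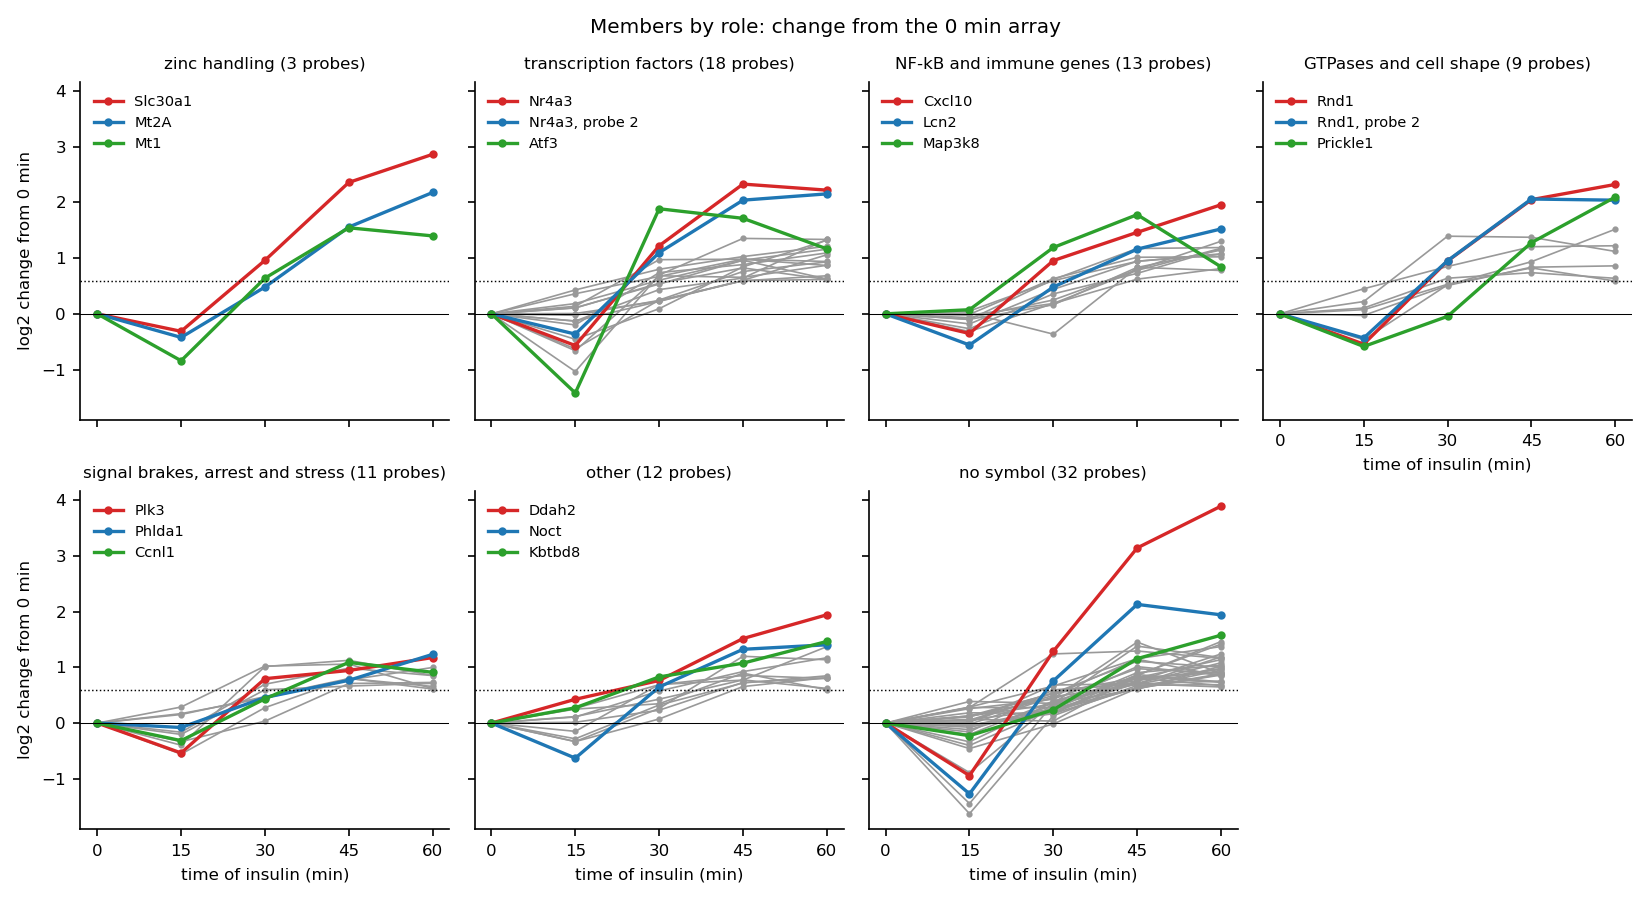
Each line is 1 member, with the log2 change from the 0 min array (vertical axis) against minutes of insulin (horizontal axis), the members grouped by the known role of their gene and the 3 with the largest mean change coloured in each panel. The 1.5-fold threshold is dotted. The probe with no symbol beside Slc30a1 shows the largest change, followed by Slc30a1, and Atf3 peaks at 30 min.

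Genes that handle zinc were among the members with the largest changes, Slc30a1 having the largest mean change at 45 and 60 min of those with a symbol. Slc30a1 codes for ZnT1, the transporter that exports zinc from the cytoplasm through the plasma membrane. Its log2 level, relative to the 75th percentile of each array, was −1.01 at 0 min, −1.33 at 15 min, −0.06 at 30 min, 1.34 at 45 min and 1.85 at 60 min. The levels at 45 and 60 min thus stood well above the other 3, and the fold over 0 min was 1.94 at 30 min, 5.12 at 45 min and 7.26 at 60 min. The probe lies at chr13:107983689-107983748 (rn4, plus strand).

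A probe with no symbol, 3881 bases farther along the same strand at chr13:107987629-107987688 (rn4), gave the largest change of all members. Its log2 level was −2.04, −2.98, −0.75, 1.10 and 1.85 in order of time, which is 2.44-fold, 8.82-fold and 14.8-fold above 0 min at 30, 45 and 60 min. It dipped at 15 min more than the Slc30a1 probe did. A second probe with no symbol, at chr13:107988261-107988320 and 4513 bases from Slc30a1, is annotated on the opposite strand and read −3.43, −4.70, −2.68, −1.30 and −1.49. It was higher by 4.37-fold at 45 min and by 3.84-fold at 60 min, and its log2 changes were 1.06 and 0.75 with another background correction, normexp. This probe met the whole rule, which also compares 45 with 15 min, under 5 of 6 other settings of the processing. The files do not tie either probe to the Slc30a1 transcript.

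The metallothioneins also dipped at 15 min and were highest at 45 or 60 min. Mt2A read 4.22, 3.80, 4.71, 5.78 and 6.40 in order of time, and was higher by 2.94-fold at 45 min and by 4.52-fold at 60 min. Mt1 read 5.50, 4.66, 6.14, 7.04 and 6.90, with a fold of 2.91 at 45 min and 2.63 at 60 min. Their levels at 45 and 60 min lay above those of the other 3 arrays. A second Mt1 probe, which was not a member, had log2 changes of 0.93 at 45 min and −0.03 at 60 min, so the 2 probes of Mt1 part at 60 min. Metallothionein genes are near copies of one another, and probes of this family can share signal. The other tested genes of the zinc list had smaller changes, with 0.30 and 0.84 at 45 and 60 min for the importer Slc39a14, and −0.19 and 0.32 for the importer Slc39a4. Slc30a1, Mt1 and Mt2A were thus 3 of the 5 tested genes of this list past the threshold at both times (0.789% of tested probes).

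The promoters of these genes are shown because the metal response element, bound by the zinc-sensing factor MTF1, is a known feature of metallothionein promoters. The RefSeq table (assembly GRCr8) held a promoter for 51 of the 59 symbols, and the 250 bases before the annotated start are printed 5′ to 3′ on the strand of the gene. Capitals mark matches to the core of the element, TGCACNC or TGCGCNC, on either strand, a search that was added after the values had been seen.
Slc30a1 (chr13:106021769-106022018, plus strand): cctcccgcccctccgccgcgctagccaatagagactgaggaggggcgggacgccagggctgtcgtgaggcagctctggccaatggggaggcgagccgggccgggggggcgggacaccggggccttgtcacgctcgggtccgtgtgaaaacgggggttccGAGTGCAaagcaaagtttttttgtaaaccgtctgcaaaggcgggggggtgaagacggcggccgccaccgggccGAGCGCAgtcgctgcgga
Mt1 (chr19:10832976-10833225, minus strand): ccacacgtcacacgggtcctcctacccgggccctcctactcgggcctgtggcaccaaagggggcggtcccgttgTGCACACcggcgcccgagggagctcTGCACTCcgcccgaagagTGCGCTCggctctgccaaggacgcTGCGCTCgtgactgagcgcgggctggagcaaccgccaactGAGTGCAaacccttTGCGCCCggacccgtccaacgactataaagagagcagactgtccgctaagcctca
Mt2A (chr19:10838709-10838958, minus strand): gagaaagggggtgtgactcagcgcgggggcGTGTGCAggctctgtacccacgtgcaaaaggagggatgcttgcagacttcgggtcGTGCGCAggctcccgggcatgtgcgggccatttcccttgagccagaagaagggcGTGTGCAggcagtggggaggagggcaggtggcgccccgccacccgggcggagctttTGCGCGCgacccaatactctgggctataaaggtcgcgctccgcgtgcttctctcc
Mt1 held 6 matches, Mt2A 4 and Slc30a1 2. In the window from 250 bases before to 50 after the start, at least 4 matches were found in 2 of the 51 member promoters (3.92%), in 0.455% of all 27457 promoters and in 0.601% of the 7324 promoters of tested genes. Those 2 were Mt1 and Mt2A. At least 3 matches were found in 5.88% of member promoters, 1.81% of all promoters and 3.11% of those of tested genes. At least 2, the number in Slc30a1, were found in 15.7%, 6.69% and 11.3%. At least 1 match was found in 41.2% of member promoters, 25% of all promoters and 35.9% of those of tested genes. A match describes the letters of the window and is not evidence of binding.

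Transcription factors formed the largest named group, with 18 probes of 15 genes. Their median log2 change was 0.64 at 30 min, 0.92 at 45 min and 1.08 at 60 min, and 10 of the 18 probes were past the threshold at 30 min. Nr4a3, an orphan nuclear receptor of the immediate early class, read −2.32, −2.89, −1.10, 0.01 and −0.10 in order of time. It was 2.33-fold, 5.02-fold and 4.65-fold above 0 min at 30, 45 and 60 min, so its 45 and 60 min levels were close together and above the others. Its second probe read −3.47, −3.84, −2.38, −1.43 and −1.32, with a fold of 4.11 at 45 min and 4.44 at 60 min. Under normexp the log2 changes of the first probe were 1.62 and 1.51 and those of the second 0.99 and 0.94. The first met the whole rule under all 6 other settings of the processing and the second under 5 of them. The 2 probes lie at chr5:64753210-64753269 and chr5:64754182-64754241 (rn4).

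Atf3, a stress-responsive repressor of the ATF/CREB family, was highest at 30 min. It read 4.76, 3.34, 6.64, 6.47 and 5.92, which is 3.69-fold above 0 min at 30 min, 3.28-fold at 45 min and still 2.24-fold at 60 min. The 15 min level was 0.374 times that of 0 min, the lowest of the named members at that time. Arid5a, a DNA- and RNA-binding protein that stabilises cytokine mRNA, dipped in a similar way and read −0.41, −1.44, 0.29, 0.94 and 0.92. It was higher by 2.55-fold at 45 min and by 2.52-fold at 60 min.

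Srf, the factor that with its MRTF and ternary complex partners drives actin and immediate early genes, was measured by 3 tested probes. The first member probe read 0.22, 0.02, 0.96, 1.10 and 1.31, with a fold of 1.84 at 45 min and 2.13 at 60 min. The second read −3.76, −3.62, −2.79, −2.78 and −2.89, with a fold of 1.97 and 1.82, but with log2 changes of only 0.42 and 0.01 under normexp. The third, the brightest, was no member, with log2 changes of 0.44, 0.55 and 0.92 at 30, 45 and 60 min. The Srf promoter is shown because it was the only 1 of the 51 member promoters with a CArG box, the site that SRF itself binds (1.96%, against 1.64% of all promoters and 1.32% of those of tested genes). Capitals mark its 2 matches.
Srf (GRCr8 chr9:21923826-21924075, plus strand): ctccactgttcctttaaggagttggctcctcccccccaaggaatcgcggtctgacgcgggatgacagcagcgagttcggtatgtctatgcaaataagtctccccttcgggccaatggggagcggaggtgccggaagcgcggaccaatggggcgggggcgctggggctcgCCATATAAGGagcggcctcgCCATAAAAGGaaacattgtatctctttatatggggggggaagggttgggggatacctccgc
Of the other 5 tested genes of the SRF and actin list, none was past the threshold at both times (0.789% of tested probes). Actb, cytoplasmic actin, had log2 changes of 0.56, 0.48 and 0.04 at 30, 45 and 60 min, and Vcl, the adhesion protein vinculin, −0.38, −0.32 and 0.67.

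The remaining factors had changes near the group's median. Bhlhe40, a basic helix-loop-helix repressor of the clock, was highest at 60 min, with readings of −0.19, −0.65, −0.10, 0.65 and 1.13 and a fold of 1.79 at 45 min and 2.49 at 60 min. A probe with no symbol 172 bases away read 0.06, −0.16, 0.30, 1.22 and 1.64, which is 2.23-fold and 2.98-fold. Sertad1, a coactivator of E2F factors, was 2.04-fold and 2.32-fold higher at these times, and Klf5, a zinc finger activator, 1.56-fold and 2.52-fold. Jund, a subunit of the AP-1 factor, read 5.75, 6.11, 6.42, 6.73 and 6.69, a fold of 1.97 and 1.92. Its member probe had no value once outlier spots were left out, and its other tested probes were not members. Csrnp1, a nuclear protein first known as an axin-induced gene, was 1.57-fold and 1.83-fold higher, with a log2 change of 0.44 at 45 min when arrays were centred on control transcripts added to the samples.

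Zinc finger proteins of less settled function made up most of the rest of the group. Zfp868 was past the rule with 2 probes, 1.95-fold and 1.94-fold higher at 45 min and 2.23-fold and 1.54-fold at 60 min. Zfp184, Zfp746, Zfp24 and Plagl2 were 1.51-fold to 1.77-fold higher at 45 min and 1.53-fold to 2.08-fold at 60 min. A second tested probe of Plagl2 had log2 changes of 0.29 and 0.28 at these times and that of Zfp746 0.55 and 0.21, all under the threshold. Under normexp the change of Zfp184 at 60 min was −0.03. Osr2, an odd-skipped related factor of limb and tooth development, was 1.69-fold and 1.91-fold higher.

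Genes of the NF-kB pathway and of immune defence gave 13 probes of 12 genes. NF-kB dimers of REL-family proteins are held in the cytoplasm by IkB proteins, and their target genes include the IkB genes themselves. At 60 min 11 of the 13 probes were higher than at 45 min, against 62 of all 98 members and 51.0% of tested probes. The group was formed after the values were seen and the 60 min array had a slide of its own, so this count carries no test. At 30 min, 5 of the 13 were past the threshold. The largest change was that of Cxcl10, a chemokine that attracts T cells. It read −1.90, −2.25, −0.95, −0.44 and 0.05 in order of time, with a higher value at each step after 15 min, and was higher by 2.75-fold at 45 min and by 3.88-fold at 60 min.

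Components of the pathway itself were among the members. Rel, which codes for the c-Rel subunit, read −3.47, −3.54, −3.22, −2.68 and −2.17, with a fold of 1.73 at 45 min and 2.46 at 60 min, but its log2 changes were 0.38 and 0.31 with the normexp background, under the threshold at both times. Nfkbie, which codes for the inhibitor IkB epsilon, read −2.0, −2.27, −1.65, −1.28 and −0.84, a fold of 1.65 and 2.24, with a log2 change of 0.42 at 45 min under normexp. The array names that probe Slc35b2, and its accession carries the symbol Nfkbie in the RefSeq table. Another probe 829 bases away, with no symbol, was 2.15-fold and 2.00-fold higher. Nfkbib, which codes for IkB beta, read 0.78, 0.76, 0.97, 1.40 and 1.59, a fold of 1.54 and 1.75.

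Map3k8, the kinase Tpl2 that activates ERK downstream of NF-kB p105, differed from these in its course. It read −3.82, −3.74, −2.63, −2.04 and −2.97, which is 2.28-fold above 0 min at 30 min, 3.43-fold at 45 min but only 1.79-fold at 60 min. With the normexp background its log2 changes were 0.79 at 45 min and 0.09 at 60 min, the latter under the threshold. A probe with no symbol 1253 bases from Map3k14, the kinase NIK of the alternative NF-kB pathway, was higher by 2.21-fold at 45 min and by 1.79-fold at 60 min. The Map3k14 probe itself had log2 changes of 0.64 at 45 min and 0.22 at 60 min. A further probe with no symbol, which the array describes as similar to the v-rel oncogene, was 1.64-fold and 2.12-fold higher.

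Targets and receptors completed the group. Icam1, an adhesion molecule for leukocytes, was spotted 10 times and read 2.56, 2.46, 3.17, 3.73 and 3.75, with an SD between spots of 0.11 to 0.14. Its fold was 2.25 at 45 min and 2.28 at 60 min, and the SD covers the spotting and reading of 1 array only. Tnfrsf12a, the receptor of the cytokine TWEAK, was 2.02-fold and 1.92-fold higher at 45 min and 2.03-fold and 2.11-fold at 60 min by its 2 probes. Irf1, a transcription factor of interferon responses, read −1.94, −2.12, −1.50, −0.99 and −0.87, a fold of 1.92 and 2.09. Lcn2, an acute-phase protein that binds iron-carrying siderophores, read 0.31, −0.25, 0.79, 1.47 and 1.83, a fold of 2.23 and 2.87.

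Further members of this group were the class I histocompatibility gene RT1-CE6, 1.72-fold and 2.26-fold higher at 45 and 60 min, Il18bp, a secreted inhibitor of interleukin 18, 1.78-fold and 1.71-fold, and Reg3b, 1.78-fold and 2.21-fold. Under normexp the log2 changes were 0.41 and 0.46 for RT1-CE6 and 0.38 and 0.33 for Reg3b, all under the threshold. The class I genes are close copies of one another, so the RT1-CE6 probe may share signal with them. A probe described as similar to a serum amyloid A3 precursor, which has no symbol in the tables, read −3.06, −2.67, −2.71, −1.68 and −1.89, a fold of 2.60 and 2.26, with a log2 change of 0.48 at 60 min under normexp.

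Promoters of 4 of these genes are shown because each held a kappaB site, the sequence that NF-kB dimers bind, and capitals mark the matches.
Cxcl10 (GRCr8 chr14:15988816-15989065, plus strand): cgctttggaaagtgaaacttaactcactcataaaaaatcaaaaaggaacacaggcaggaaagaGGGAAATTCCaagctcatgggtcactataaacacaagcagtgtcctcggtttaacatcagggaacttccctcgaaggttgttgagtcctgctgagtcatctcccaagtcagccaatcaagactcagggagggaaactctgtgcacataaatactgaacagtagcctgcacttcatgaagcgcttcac
Irf1 (GRCr8 chr10:38417685-38417934, plus strand): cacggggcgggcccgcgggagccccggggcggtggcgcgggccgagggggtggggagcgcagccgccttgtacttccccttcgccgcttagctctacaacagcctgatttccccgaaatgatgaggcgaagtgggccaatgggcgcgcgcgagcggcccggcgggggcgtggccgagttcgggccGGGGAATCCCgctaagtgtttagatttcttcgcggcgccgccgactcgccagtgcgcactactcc
Nfkbie (GRCr8 chr9:22947873-22948122, minus strand): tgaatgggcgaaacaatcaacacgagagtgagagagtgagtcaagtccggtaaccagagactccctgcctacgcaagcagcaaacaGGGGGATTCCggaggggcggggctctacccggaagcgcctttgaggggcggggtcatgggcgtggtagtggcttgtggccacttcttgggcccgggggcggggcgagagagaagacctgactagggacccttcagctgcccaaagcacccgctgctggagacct
Rel (GRCr8 chr14:101921939-101922188, minus strand): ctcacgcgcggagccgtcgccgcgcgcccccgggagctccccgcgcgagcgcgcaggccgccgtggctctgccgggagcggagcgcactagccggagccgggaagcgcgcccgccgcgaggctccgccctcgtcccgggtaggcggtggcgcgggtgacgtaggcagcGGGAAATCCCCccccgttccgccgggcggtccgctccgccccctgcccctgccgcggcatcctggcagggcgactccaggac
The capitals of Rel cover 2 overlapping matches. A kappaB site was found in 7 of the 51 member promoters (13.7%), against 4.16% of all promoters and 4.75% of those of tested genes. The other 3 were those of Map3k8, Lcn2 and Kbtbd8. Within the same group, the promoters of Icam1, Tnfrsf12a, Reg3b and RT1-CE6 held no match. In the bases before the start alone the share was 11.8%, against 3.52% and 4.04%, the Map3k8 match lying after the start.

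Small GTPases and genes of cell shape gave 9 probes of 8 genes, 5 of them past the threshold at 30 min. Rnd1, an atypical small GTPase that loosens actin stress fibres, had the largest change. Its first probe read −2.12, −2.66, −1.17, −0.07 and 0.20 in order of time, with a fold of 4.13 at 45 min and 4.99 at 60 min. The second read 1.55, 1.11, 2.50, 3.61 and 3.59, a fold of 4.17 and 4.11, so the 2 probes gave nearly the same course. Under normexp the changes of the first were 1.42 and 1.6 on the log2 scale. They lie on the rn4 minus strand, at chr7:137420891-137420950 and chr7:137418530-137418588.

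Rhob, another small GTPase and an early gene of growth factor responses, was up sooner. It read 0.27, 0.49, 1.67, 1.65 and 1.39, which is 2.62-fold, 2.59-fold and 2.17-fold above 0 min at 30, 45 and 60 min. The nearest probe with no symbol, 1082 bases away on the opposite strand, had a fold of 2.36, 2.45 and 2.23. Under normexp the log2 changes of that probe were only 0.43 at 45 min and 0.07 at 60 min. Prickle1, a planar cell polarity protein, was the latest of the group and read −2.55, −3.14, −2.60, −1.28 and −0.46. Its fold over 0 min was 0.969 at 30 min, then 2.42 at 45 min and 4.27 at 60 min.

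Zyx, which codes for the focal adhesion protein zyxin, read 0.18, −0.29, 0.70, 1.11 and 1.70, a fold of 1.91 at 45 min and 2.86 at 60 min. Gnas, the alpha subunit of the stimulatory G protein, was spotted 10 times with an SD between spots of 0.16 to 0.23. It read −3.19, −2.74, −2.34, −1.98 and −1.97, a fold of 2.30 and 2.33. Another tested Gnas probe had changes of only 0.02 and 0.23 on the log2 scale at 45 and 60 min, so the 2 do not give the same account of the gene, and under normexp the member's change at 60 min was 0.39. Myadm, Arl4a and Rassf1, the last a Ras-association tumour suppressor, were 1.67-fold to 1.78-fold higher at 45 min and 1.5-fold to 1.82-fold at 60 min. A probe with no symbol 2609 bases from Arl4a was 2.74-fold and 1.86-fold higher, but with log2 changes of 0.66 and 0.09 under normexp.

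Brakes on signalling and genes of arrest and stress gave 11 probes of 10 genes, with median log2 changes of 0.47, 0.80 and 0.85 at 30, 45 and 60 min. Plk3, a stress-responsive Polo kinase, was past the rule with both probes. It read 0.67, 0.13, 1.46, 1.61 and 1.84 by the first and −2.92, −3.31, −1.90, −1.79 and −2.06 by the second, with folds of 1.92 and 2.18 at 45 min and of 2.26 and 1.81 at 60 min. The second probe had log2 changes of 0.57 and 0.19 under normexp. Phlda1, a pleckstrin-homology protein induced through ERK, read 0.57, 0.49, 1.03, 1.34 and 1.80, a fold of 1.70 and 2.35, and its log2 change at 45 min was 0.56 with arrays centred on the added control transcripts. Ccnl1, a cyclin that takes part in splicing, read 1.99, 1.68, 2.43, 3.08 and 2.90, a fold of 2.13 and 1.88.

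The stress genes Gadd45a and Mdm2, both known targets of p53, were 1.75-fold and 1.74-fold higher at 45 min and 1.53-fold and 1.58-fold higher at 60 min. Cish, a cytokine-inducible brake on STAT5 signalling, read −1.83, −1.67, −1.38, −1.06 and −0.84, a fold of 1.71 and 2.00. With the same centring 1 late change of each fell under the threshold, to 0.34 for Gadd45a and 0.39 for Mdm2 at 60 min and to 0.56 for Cish at 45 min. Osgin1, an oxidative stress-induced growth inhibitor, was highest at 30 and 45 min, with folds of 2.03, 2.08 and 1.53 at 30, 45 and 60 min. Neurl3, a ubiquitin ligase, Rcan1, an inhibitor of calcineurin, and G0s2, an inhibitor of the fat lipase ATGL, were 1.58-fold to 1.98-fold higher at 45 min and 1.64-fold to 1.80-fold at 60 min.

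The other 12 named probes, from 11 genes, had no common role. Ddah2, which breaks down methylated arginines that inhibit nitric oxide synthase, read −1.84, −1.41, −1.08, −0.32 and 0.10, each above the one before it, and was higher by 2.86-fold at 45 min and by 3.84-fold at 60 min. Noct, the phosphatase nocturnin, read 1.30, 0.67, 1.94, 2.62 and 2.70, a fold of 2.50 and 2.65. Kbtbd8, a substrate adaptor of a ubiquitin ligase, read −0.49, −0.22, 0.33, 0.58 and 0.97, a fold of 2.11 and 2.76. Tgm1, a transglutaminase, was 2.29-fold and 2.20-fold higher, and the secreted neuropeptide precursor Vgf 1.71-fold and 2.58-fold, but with log2 changes of 0.33 and 0.35 under normexp.

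Mars2, the mitochondrial methionyl-tRNA synthetase, was past the rule with 2 probes, 1.90-fold and 1.71-fold higher at 45 min and 2.25-fold and 1.54-fold at 60 min. Mmp24, Cox20, Stbd1, Obi1 and a placeholder gene, RGD1562699, were 1.57-fold to 1.86-fold higher at 45 min and 1.51-fold to 1.80-fold at 60 min. Under normexp the log2 change at 60 min was −0.08 for RGD1562699, 0.07 for Obi1, 0.23 for Stbd1, 0.42 for Cox20 and 0.88 for Mmp24. Cox20 is an assembly factor of cytochrome c oxidase, and Stbd1 binds glycogen.

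The cAMP response element in its full form, TGACGTCA, was found in the promoters of Ccnl1, Jund, Rcan1 and Vgf. That is 7.84% of the 51, against 1.91% of all promoters and 3.22% of those of tested genes. The promoters of Rcan1 and Vgf are shown as examples, with the element in capitals.
Rcan1 (GRCr8 chr11:45118237-45118486, minus strand): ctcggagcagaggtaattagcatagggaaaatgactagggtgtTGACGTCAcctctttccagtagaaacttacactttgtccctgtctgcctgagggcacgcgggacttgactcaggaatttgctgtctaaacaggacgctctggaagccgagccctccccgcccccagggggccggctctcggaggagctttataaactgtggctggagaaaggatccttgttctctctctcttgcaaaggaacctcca
Vgf (GRCr8 chr12:25277021-25277270, minus strand): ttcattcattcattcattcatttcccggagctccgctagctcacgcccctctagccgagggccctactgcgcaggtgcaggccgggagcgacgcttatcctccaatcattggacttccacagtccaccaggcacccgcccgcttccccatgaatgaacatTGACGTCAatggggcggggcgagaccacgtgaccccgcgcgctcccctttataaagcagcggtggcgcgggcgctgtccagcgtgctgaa
The AP-1 motif TGANTCA, which the cAMP response element does not contain, was found in 11.8% of member promoters, against 7.33% of all promoters and 4.86% of those of tested genes. The letters TATAAA, the core of the TATA box, were found at any place in the window in 23.5%, against 14.3% and 7.09%. The 12 promoters with a match included those of Mt1, Mt2A, Srf, Cxcl10, Icam1, Rcan1 and Vgf. Neither the place nor the strand was asked for, so a match is not evidence of a TATA box. Those of Srf, Gnas, Zfp746 and RGD1562699 lay on the opposite strand only. Those of Cxcl10 and Prickle1 lay much farther from the start than those of Mt1 and Mt2A. GGGCGG, the core of the GC box, was found in 68.6%, against 34.9% and 61.8%, and the E-box CACGTG in 7.84%, against 6.65% and 10.0%. Both strands were searched for all motifs. The shares of all promoters count genes that these cells may not express, and those of tested genes are the closer comparison.

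**Figure D4:**
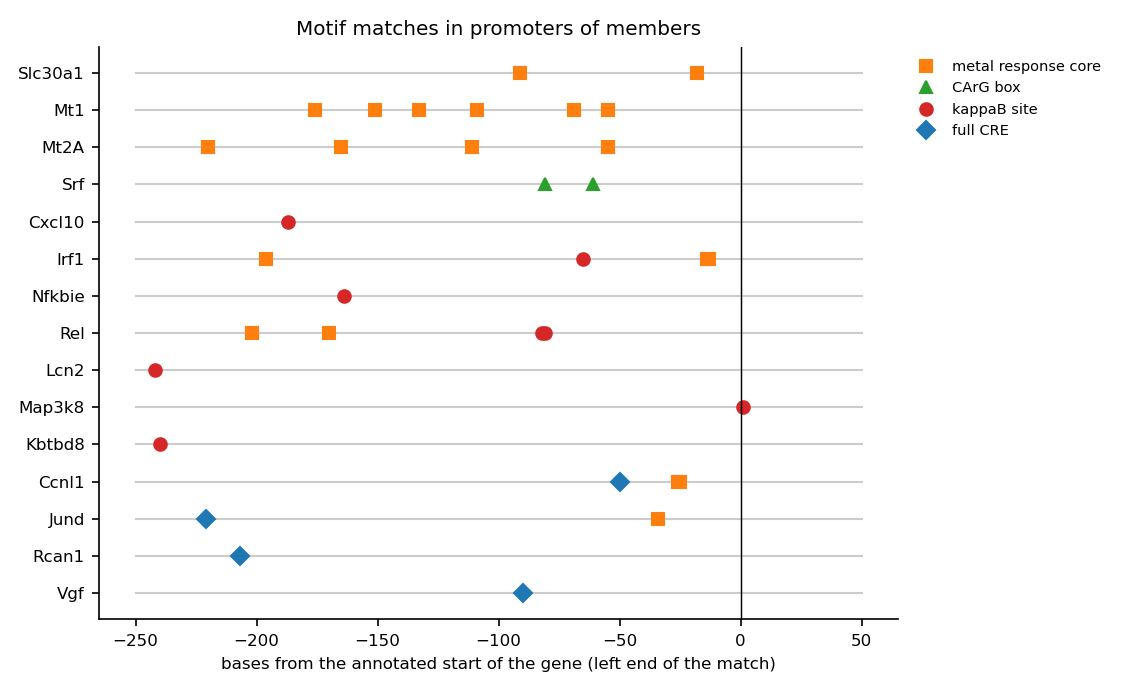
Rows are member genes whose promoter held a metal response core, CArG box, kappaB site or full cAMP response element (CRE), and each symbol marks the left end of a match in bases from the annotated start (horizontal axis). Mt1 shows 6 metal response cores and Mt2A 4, and the 2 CArG boxes of Srf lie close together before the start.

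The 32 members with no symbol had median log2 changes of 0.36, 0.83 and 0.98 at 30, 45 and 60 min and 6 of them were past the threshold at 30 min, a smaller share than among all 98 members. Of the 28 with coordinates, 18 lay within 10000 bases of a probe with a symbol, and for 7 of these the nearest was itself a member. Slc30a1 had 2 such neighbours, and Bhlhe40, Rhob, Nfkbie, Arl4a and Csrnp1 had 1 each. The probe 998 bases from Csrnp1 read 2.06, 1.17, 2.42, 2.67 and 3.08, a fold of 1.52 at 45 min and 2.03 at 60 min. A probe 39 bases from that of Trib1, a pseudokinase that directs protein degradation, read −2.11, −3.55, −1.76, −1.10 and −1.25, a fold of 2.02 and 1.81. The Trib1 probe had log2 changes of −1.65, 0.33, 0.82 and 0.41 at 15, 30, 45 and 60 min, the last under the threshold. A probe with no coordinates, described by the array as similar to a G protein alpha subunit, read −0.08, 0.21, 0.59, 1.08 and 1.30, a fold of 2.23 and 2.59. In all, 14 places on the genome held more than 1 member within 10000 bases, and these took in 29 of the 93 members with coordinates.

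Genes with more than 1 tested probe gave a second reading of the same RNA. Leaving out the probe with the largest change in each of 15 such genes, 17 other probes remained. Of these, 7 also met the whole rule (0.496% of tested probes), so they are members chosen by the same values, and 10 were not members. Among the 17, 15 were above 0 at both 45 and 60 min (31.9% of tested probes), the 7 members by the rule itself. The median changes of the 17 were 0.77 at 45 min and 0.62 at 60 min, and the rule held the 7 members among them above the threshold. The 10 that were not members share the arrays and the RNA with the members and so bear on the probe, not the culture. Of the 17, the 2 that were not above 0 at both times were the second Mt1 probe and a Jund probe, with −0.40 at 45 min and 0.18 at 60 min. Another Jund probe had 0.78 and 0.42.

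**Figure D5:**
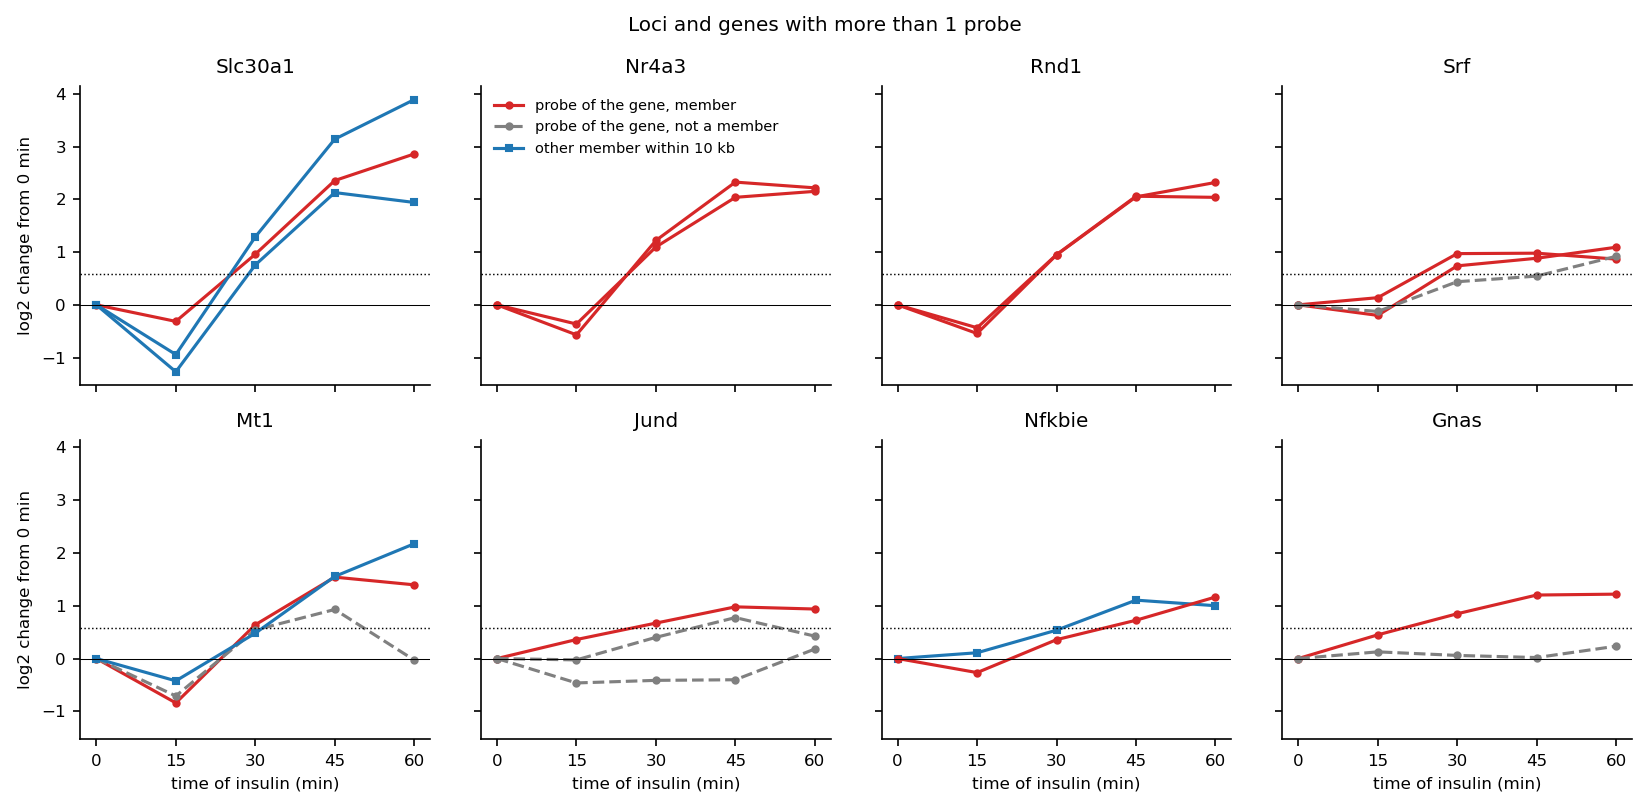
Panels show, for 8 genes, the log2 change from 0 min (vertical axis) against minutes of insulin (horizontal axis) for each tested probe of the gene, members in solid red and others in dashed grey, with other members within 10000 bases in blue. The probes of Nr4a3 and Rnd1 overlie one another, and those of Mt1, Jund and Gnas part.

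Set among other genes of their pathways, the members were a minority in most lists. Of 141 distinct tested genes in 13 lists, 18 were past the threshold at both 45 and 60 min by their brightest probe (0.789% of tested probes). Of 21 immediate early transcription factors, 13 were past it at 30 min, 7 at 45 min, 7 at 60 min and 4 at both late times, these being Nr4a3, Atf3, Jund and Csrnp1. Junb had log2 changes of 1.20, 0.13 and −0.64 at 30, 45 and 60 min, Ier2 of 1.42, 0.21 and −0.27, and Jun of 1.99, 1.19 and 0.52. All 3 were lower at 60 than at 30 min, whereas the member Nr4a3 was higher. Atf3, also a member, was lower too, with 1.88 at 30 min and 1.16 at 60 min. The rule itself asked members to be high at 60 min. Nr4a1, a near relative of Nr4a3, had 0.64, 0.60 and 0.43.

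Of 12 NF-kB targets, 5 were past the threshold at both times, namely Rel, Nfkbie, Icam1, Cxcl10 and Irf1. Nfkbiz, a nuclear IkB protein, had changes of 1.09, 1.04 and −0.14 at 30, 45 and 60 min, and Cxcl1 of 0.81, 0.17 and −1.10. In the interferon list 2 of 8 passed, both of them also NF-kB targets. The clock list gave 1 of 9, Bhlhe40, while Per2 had 0.54 and 1.40 at 45 and 60 min and missed the threshold at 45 min. The JAK-STAT list gave 1 of 13, Cish, and that of ERK feedback inhibitors 1 of 8, Phlda1. Of 15 stress, arrest and survival genes, Plk3 and Gadd45a passed, and Mdm2 did so by its member probe but not by its brightest probe. None passed at both times among 10 secreted ligands, 9 mRNA decay factors and 14 ribosome biogenesis genes.

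The edge of the set is set by the threshold. Just inside it lay Rassf1, with changes of 0.82 at 45 min and 0.59 at 60 min, Obi1, a ubiquitin ligase of DNA replication origins, with 0.85 and 0.80 and a difference of 0.59 between 45 and 15 min, and Zfp24, with 0.59 and 0.68. Just outside lay a second probe of Phlda1, with 0.58 and 1.15, and Epc1, a chromatin protein, with 0.74 and 1.33 but a difference of 0.58 between 45 and 15 min. Also just outside was a probe with no symbol, with 0.63 and 1.02 and a difference of 0.58.

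The size of the set depended on the processing, and so did the place in it of some genes with large changes. With normexp 51 probes met the rule, 39 of them members: 3 of the 40 members among the dimmest probes at 0 min and 36 of the other 58. With arrays centred on control transcripts added to the samples 48 did, all of them members, 18 of the 40 and 30 of the 58. Under 6 settings of scaling, background, outlier spots and value source, these 2 included, 27 of the 98 members met the rule each time it could be applied. These carry 20 symbols, namely Slc30a1, Mt1, Mt2A, Nr4a3, Atf3, Arid5a, Srf, Jund, Bhlhe40, Icam1, Lcn2, Tnfrsf12a, Rnd1, Rhob, Zyx, Plk3, Ccnl1, Noct, Kbtbd8 and Tgm1. Of the other members with large changes, Ddah2, Cxcl10 and Prickle1 met the rule under 5 of the 6 settings and Map3k8 under 4.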

How the data were processed

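Insulin-treated Fao cells were measured on Agilent 1-colour rat arrays (design 014879, probes placed on rn4), 1 sample for each of 5 times, grouped by the time in the labels. Per the file headers, the deposited intensity values were read with Agilent Feature Extraction 9.5.3.1, whose processed signal has background subtracted and spatial trends removed within an array. The deposited series matrix holds log2 values, and the step that made it was not stated in the labels or headers.

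The processed signal was averaged over spots on the log2 scale, after subtraction of log2 of the 75th percentile of each array, and the selection rule was applied to probes flagged well above background on all 5 arrays. Symbols came from the accession (43 members), the current symbol (13), an older symbol (5), the description (4) or a placeholder (1) through RefSeq tables of assembly GRCr8, used for names and promoters only, and 32 members kept none. No column of sample values was left unused (0). Python 3.11.15 with numpy 2.4.6, pandas 2.3.3 and matplotlib 3.10.9, and limma 3.58.1 in R 4.3.3 for normexp (offset 50), were used. Quantile scaling was done in Python. The rule and counts were tested on simulated data.

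The members and the gene lists were chosen with earlier results of these data known. Named were members in a list, the 25 with the largest mean change at 45 and 60 min, the 5 largest without symbol, the 3 nearest the threshold on each side and members with another probe going the other way. Other members were named by role after their values were seen. A result of 1 list gene is not reported here. Alternatives covered scaling, background, outlier spots, dim probes, threshold, reference array and slide, and the closing section gives their effect. Signal over background and 1 array per time limit the precision.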

Additional observations from a re-analysis of the deposited data

How the results depend on the processing

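The 98 members, the 38 of them past the threshold at 30 min, the 7 other probes of member genes that met the rule and the 18 list genes past the threshold at both late times were recounted under 11 alternatives, in that order below. Quantile scaling gave 94, 34, 7 and 17, the 75th percentile over detected probes 92, 33, 7 and 18, the series matrix 99, 37, 8 and 17, and the removal of outlier spots 97, 37, 7 and 17. Centring on the added control transcripts gave 48, 17, 4 and 11. It moved the median of all tested probes to −0.19 at 45 min and −0.25 at 60 min, since those transcripts read 0.21 and 0.27 higher there, and all 48 were members. The normexp background gave 51, 18, 2 and 15, and requiring signal well above background only at 45 and 60 min gave 322, 98, 10 and 19. Probes above the median level gave 41, 21, 1 and 11, of fewer probes tested, and a threshold of 1 on the log2 scale 22, 6, 2 and 7. The 15 min array as reference gave 168, 67, 10 and 26, with 88 of the 168 members, and slide 1 alone, without a condition at 60 min, gave 153, 45, 11 and 26. Apart from these constructions, the cause of the differences was not tested. Under the 6 settings of scaling, background, outlier spots and value source, 2 of 1172 member values at 45 and 60 min were below 0, those of RGD1562699 (−0.08) and Zfp184 (−0.03) at 60 min with normexp. No paired analysis was possible because the labels give no replicate numbers and each time has 1 array.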
